A study of Bos taurus with 33 samples.

Results

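The proteasome subunit genes were described here in bovine oocytes and in the cumulus cells (CC) that surround them. Members were all genes whose symbol begins with PSMA, PSMB, PSMC, PSMD, PSME, PSMF or PSMG followed by a digit. PSMC3IP, which shares only the letters of the name, was left out. The rule took 48 of the 17543 genes listed in either cell type, 47 in the oocyte table and 48 in the CC table. PSMB11 was listed in CC only, and PSMA1, PSMA2 and PSMB10 had no symbol in the CC table and were joined by their Ensembl identifier. Pools came from suckled postpartum beef cows that received GnRH on d -9 and PGF2alpha on d -2. Cows with small (at most 11.7 mm) or large (at least 12.7 mm) dominant follicles did not show estrus and received a second GnRH injection on d 0, which induced the gonadotropin surge. Cows with spontaneous follicles (11.7 to 14.0 mm) showed estrus, had an endogenous surge and received no second injection. Complexes were aspirated about 20 h after the surge stimulus in 1 label field and about 23 h in another, and each pool held the oocytes or the CC of 4 complexes. Per the methods of the study the CC came from the same complexes as the oocytes, and the labels do not tie a CC pool to an oocyte pool. There were 6 small, 6 large and 4 spontaneous oocyte pools, and 6 small, 6 large and 5 spontaneous CC pools. The spontaneous class differs from the other 2 in hormone treatment and in estrus as well as in follicle size, so these cannot be told apart, and a pool is not 1 animal.

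The proteasome degrades proteins that carry ubiquitin chains. Its barrel-shaped 20S core has outer rings of alpha subunits, which gate entry, and inner rings of beta subunits, of which PSMB5, PSMB6 and PSMB7 cut peptide bonds. The 19S cap recognizes ubiquitin, removes it and unfolds the substrate with a ring of ATPases. In interferon-stimulated and immune cells PSMB8, PSMB9 and PSMB10 replace the standard catalytic subunits to form the immunoproteasome. PSMA8 replaces PSMA7 in the germ line, where it is best known from the testis. The activators PSME1 to PSME4 open the core without the 19S cap, and dedicated chaperones assemble both particles. In oocytes, protein degradation by the proteasome is needed for the passage through meiosis.

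Values are CPM, that is, a gene's reads scaled so that all genes of a pool sum to 1000000. Depth was 7664375 to 17934916 reads on genes in the oocyte pools and 1911600 to 5772431 in the CC pools. A total of 3 reads therefore stood for 0.167 to 0.391 CPM in oocytes and 0.520 to 1.57 CPM in CC. Smaller values are near the detection limit, which covers counting error only. CPM is not divided by transcript length, so levels of different genes do not give their relative amounts. Within-pool ratios of 2 genes carry the same limit and are compared only between groups of pools. The labels matched the cell types: 13 oocyte markers summed to 9973 to 14181 CPM in oocytes, and the 7 of them listed in CC summed to 48.4 to 356 CPM there, of which KIT alone made 39.9 to 350 CPM. GDF9, an oocyte growth factor, did not exceed 3.92 CPM in any CC pool. The 14 cumulus and granulosa markers listed summed to 496 to 1322 CPM in oocytes and 4137 to 11862 CPM in CC, although STAR and HAS2 were higher in oocytes.

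Nearly all proteasome genes were read in both cell types. In oocytes 40 of 47 had a read in every pool and 32 reached 5 CPM in every pool. The 7 without a read in some oocyte pool were PSMA1, PSMA2, PSMA8, PSMB8, PSMB9, PSMB10 and PSMG3. In CC 45 of 48 had a read in every pool and 43 reached 5 CPM in every pool. The exceptions in CC were PSMA8, PSMB9 and PSMB11. The members together took 0.312 to 0.381% of reads in oocytes (median 0.340%) and 0.338 to 0.509% in CC (median 0.436%). The ranges of the 2 cell types overlapped. Among the classes, the summed level of the members had medians of 3374 CPM in small, 3391 CPM in large and 3722 CPM in spontaneous oocytes. In CC these medians were 4140, 4440 and 4767 CPM, and the classes overlapped in both cell types.

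**Figure D1:**
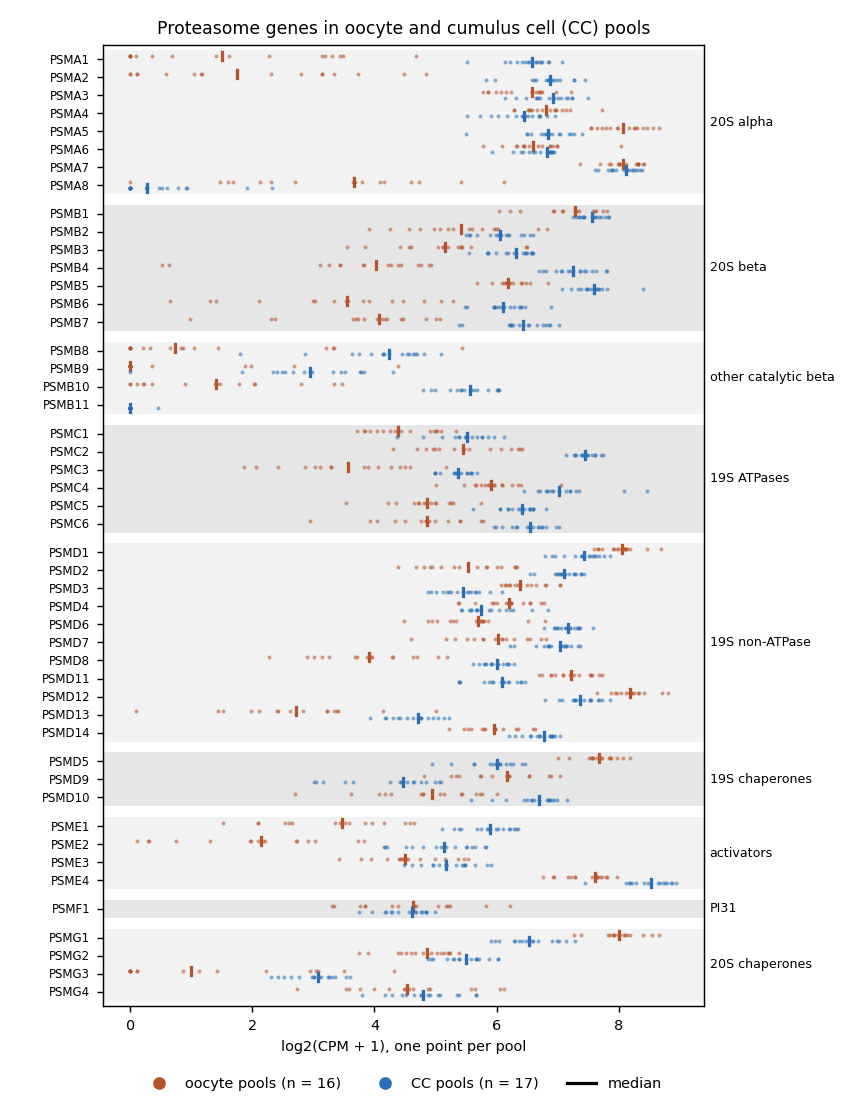
Level of each of the 48 members (rows, grouped by role) as log2(CPM + 1), with 1 point for each of the 16 oocyte pools (orange) and 17 CC pools (blue) and the median of each cell type as a vertical tick. The points of PSMA1, PSMA2, PSMB4 and PSMB10 form separate clouds with CC at the higher level, PSMA5 and PSMD5 with oocytes at the higher level, and PSMA7 and PSMF1 lie on top of each other.

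The spread between pools of the same group differed between the cell types. The within-group SD of log2(CPM + 1) had a median of 0.569 over the 45 members that passed the filter in oocytes, from 0.255 for PSMB5 to 1.74 for PSMA2. In CC the median over 46 members was 0.361, from 0.157 for PSMC2 to 0.941 for PSMB9. All genes tested had medians of 0.661 in oocytes and 0.480 in CC. A total of 10 members had an SD above 1 in oocytes (PSMA1, PSMA2, PSMA8, PSMB4, PSMB6, PSMB7, PSMB8, PSMC3, PSMD13 and PSMG3) and none did in CC. Pairs of members were more correlated than pairs of all genes in CC. The median correlation between the deviations of 2 members from their group means was 0.227 over 1035 pairs in CC, against 0.0884 over pairs of all genes. In oocytes it was 0.0332 over 990 pairs, against 0.00406. The points of these correlations are 17 and 16 pools that share library and depth, so they are given as a description. Members were also read at a higher level than all genes tested. Their median of mean log2(CPM + 1) was 6.37 against 4.72 in CC and 5.40 against 4.94 in oocytes. Genes were not matched by level, so the part of level in the SDs and correlations was not tested.

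Oocytes and CC were compared first, to ask which parts of the proteasome differed between the germ cell and its companion cells. The 20S beta ring, the 19S ATPases and the activators were higher in CC, and 2 of the 3 19S assembly chaperones and PSMG1 were higher in oocytes. Of 47 members tested, 41 differed (31 higher and 10 lower in CC) at limma's p of 0.01 or less. PSMB9 and PSMB10 were tested only because of their levels in CC and PSMA8 only because of its level in oocytes, so each had to differ. Of the 44 members that passed the filter in both cell types, 38 were called (29 higher and 9 lower). Across all 11450 genes tested, 83.2% were called, 39.3% higher and 43.9% lower. A call in this contrast is therefore common, and the direction and size of the differences carry the description. The median log2 difference from oocytes to CC was 0.96 over the members and -0.19 over all genes tested. With scaling by median of ratios the medians were 1.39 and 0.20, and without mitochondrially encoded genes 1.29 and 0.18. The members called then split into 33 higher and 8 lower, or 32 higher and 9 lower. Benjamini-Hochberg adjusted p-values of limma for the 41 members called ran from 2.04e-15 to 0.0117. In 13 members every CC pool lay above every oocyte pool, against 13.0% of all genes (1494), and in 5 every CC pool lay below, against 23.2% (2656). The fit treats all 33 pools as independent although the cell types share animals. In a fit of the small and large pools only, with class and replicate number as a block, 38 members were called. Because the samples are bulk RNA, more transcript per cell and a different number or size of cells cannot be told apart. The tables of the 2 cell types were scaled separately, so these differences were fitted on reads rescaled together over 14980 shared genes, and the CPM values beside them are as deposited.

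**Figure D2:**
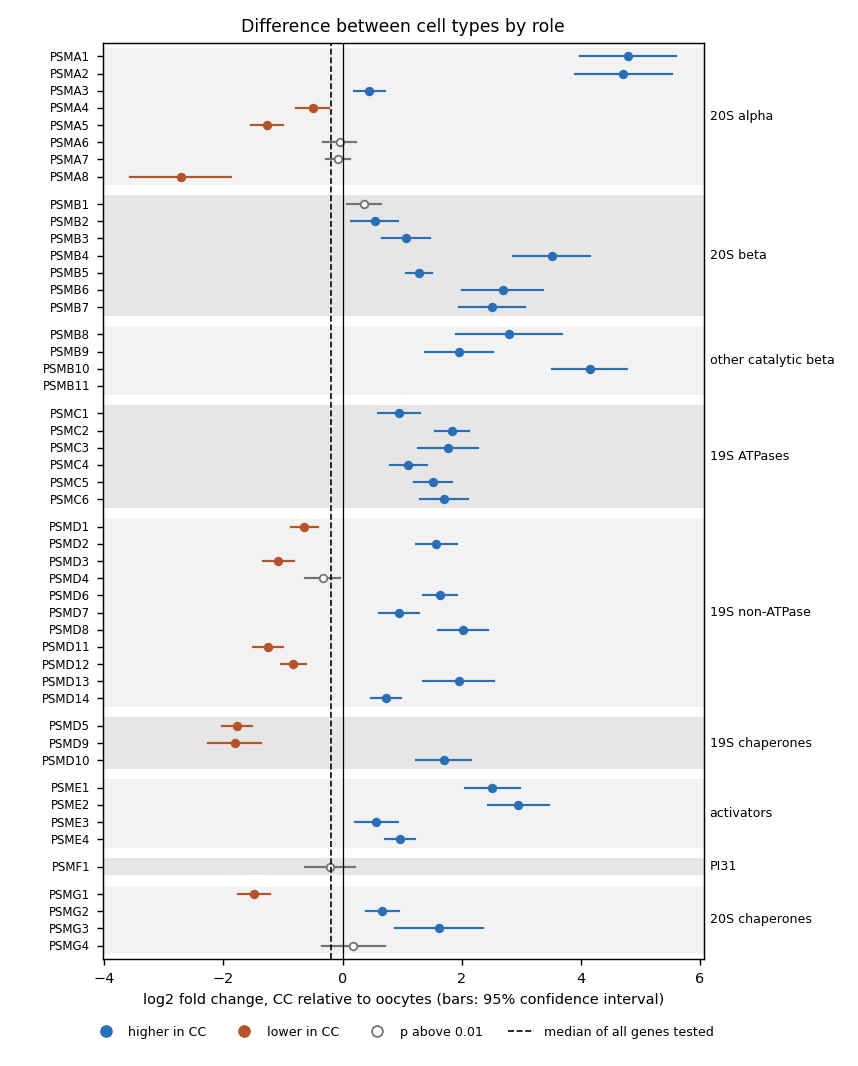
Log2 difference in level from oocytes to CC for each of the 47 members tested (points, blue for higher in CC, orange for lower, open for not called), with 95% confidence intervals (lines), by role. The dashed line is the median of all genes tested (-0.19); the 6 ATPases and 7 constitutive beta subunits all lie to the right of 0, PSMA1 (4.79) and PSMA2 (4.71) are farthest right, and PSMA8 (-2.72) is farthest left.

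The alpha ring of the core did not move in 1 direction. Of its 8 genes, 3 were called higher in CC, 3 lower and 2 were not called, with a median log2 difference of -0.06. Among all genes tested 39.3% were called higher and 43.9% lower. PSMA1 and PSMA2, ring subunits found in every proteasome, were low and uneven in oocytes. PSMA1 had 0, 1.85 and 24.5 CPM (lowest, median and highest of 16 oocyte pools, 4 of them without a read) and 44.8, 94.4 and 133 CPM in CC. Its log2 difference was 4.79 (SE 0.399), the largest of all members. PSMA2 had 0, 2.61 and 27.7 CPM in oocytes, with 2 pools without a read, and 55.8, 116 and 173 CPM in CC, a log2 difference of 4.71 (SE 0.401). The 2 cell types did not overlap for either gene. Whether reads shared with near-identical copies of these genes were dropped in counting was not tested. PSMA5, also a ring subunit, had the reverse order without overlap, with 187 to 402 CPM in oocytes and 44.5 to 168 CPM in CC (log2 difference -1.28, SE 0.133).

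PSMA7 and PSMA8 can occupy the same place in the ring. PSMA7 was similar in level in the 2 cell types, with 165, 268 and 342 CPM in oocytes and 195, 279 and 334 CPM in CC. Its log2 difference was -0.07 with a 95% confidence interval from -0.27 to 0.12. Rescaling by median of ratios, or without mitochondrially encoded genes, turned the sign of this small difference, as it did for PSMA6 and PSMF1. With median-of-ratios scaling and with DESeq2 PSMA7 was called higher in CC, by up to 0.35. PSMA8 had 0, 11.6 and 68.5 CPM in oocytes and 0, 0.209 and 4.00 CPM in CC, where 7 of 17 pools had no read. The log2 difference of -2.72 (SE 0.416) depended on the pseudocount, because CC pools lie near the limit of detection, and ran from -2.50 to -5.14 over the settings tried. Within pools, the PSMA8 to PSMA7 ratio had a median of 0.0438 in oocytes (0 to 0.334) and 0.000926 in CC (0 to 0.0168). The ranges of the ratio overlapped, since the lowest oocyte pool had no PSMA8 read. By its median the ratio was higher in oocytes.

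The beta ring was higher in CC throughout. All 7 constitutive genes had higher estimates in CC and 6 were called, with a median log2 difference of 1.28. Among all genes tested 39.3% were called higher. PSMB1 (0.37, adjusted p = 0.0168 by limma) did not reach the threshold on the unadjusted p. The summed level of these genes was 224, 341 and 507 CPM in oocytes and 575, 818 and 1044 CPM in CC, without overlap. PSMB4, a structural subunit of the ring, had 0.431, 15.5 and 29.4 CPM in oocytes and 103, 151 and 224 CPM in CC, with a log2 difference of 3.51 (SE 0.318). PSMB5, which carries the chymotrypsin-like activity, was read well in oocytes, with 50.5, 71.9 and 114 CPM. In CC it had 133, 192 and 338 CPM, a log2 difference of 1.28 (SE 0.108). The caspase-like subunit PSMB6 had 0.568, 10.7 and 38.0 CPM in oocytes and 43.9, 67.7 and 118 CPM in CC (2.69, SE 0.334). The trypsin-like subunit PSMB7 had 0.973, 15.9 and 32.7 CPM in oocytes and 40.9, 85.3 and 128 CPM in CC (2.51, SE 0.275). No oocyte pool reached the lowest CC pool for any of these 4 genes. The difference was not the same for all genes of the ring: the within-pool ratio of PSMB4 to PSMB5 had a median of 0.169 in oocytes (0.00648 to 0.425) and 0.836 in CC (0.392 to 1.27).

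Transcripts of the immunoproteasome subunits were low and uneven in oocytes. PSMB10, the counterpart of PSMB7, had 0, 1.66 and 10.1 CPM in oocytes and 26.9, 46.3 and 65.0 CPM in CC, with a log2 difference of 4.15 (SE 0.311) and no overlap. PSMB8, the counterpart of PSMB5, had no read in 5 of 16 oocyte pools and a median of 0.672 CPM, yet reached 42.4 CPM in spontaneous pool 4. In CC it had 2.48, 17.8 and 32.9 CPM (log2 difference 2.79, SE 0.437). The cell types overlapped for PSMB8. PSMB9, the counterpart of PSMB6, had no read in 11 of 16 oocyte pools and up to 19.9 CPM, against 0, 6.71 and 18.8 CPM in CC (1.95, SE 0.278). PSMB11, known from cortical epithelium of the thymus, had reads in 1 of 17 CC pools only, at 0.363 CPM. In reads of the same pool, not corrected for transcript length, PSMB10 stood at a median of 0.568 of PSMB7 in CC (0.362 to 0.885). In oocytes this ratio was 0.0694 (0 to 6.08). PSMB8 stood at 0.0936 of PSMB5 in CC (0.0140 to 0.166) and 0.00770 in oocytes (0 to 0.633). In every CC pool both ratios were above 0, and in oocytes each ran from 0 to more than the highest CC pool. PSMB9 stood at a median of 0.1 of PSMB6 in CC (0 to 0.225) and 0 in oocytes (0 to 2.19). In the spontaneous class this ratio ran from 0.200 to 2.19 in oocytes and from 0.0803 to 0.155 in CC. Markers of white blood cells, which carry the immunoproteasome, summed to 35.9 to 271 CPM in CC, where all 14 had reads, and to 147 to 302 CPM in oocytes, of which CSF1R alone made 111 to 254 CPM. CORO1A, a white blood cell gene, had no read in any oocyte pool. The part of white blood cells in the CC levels was not tested.

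**Figure D3:**
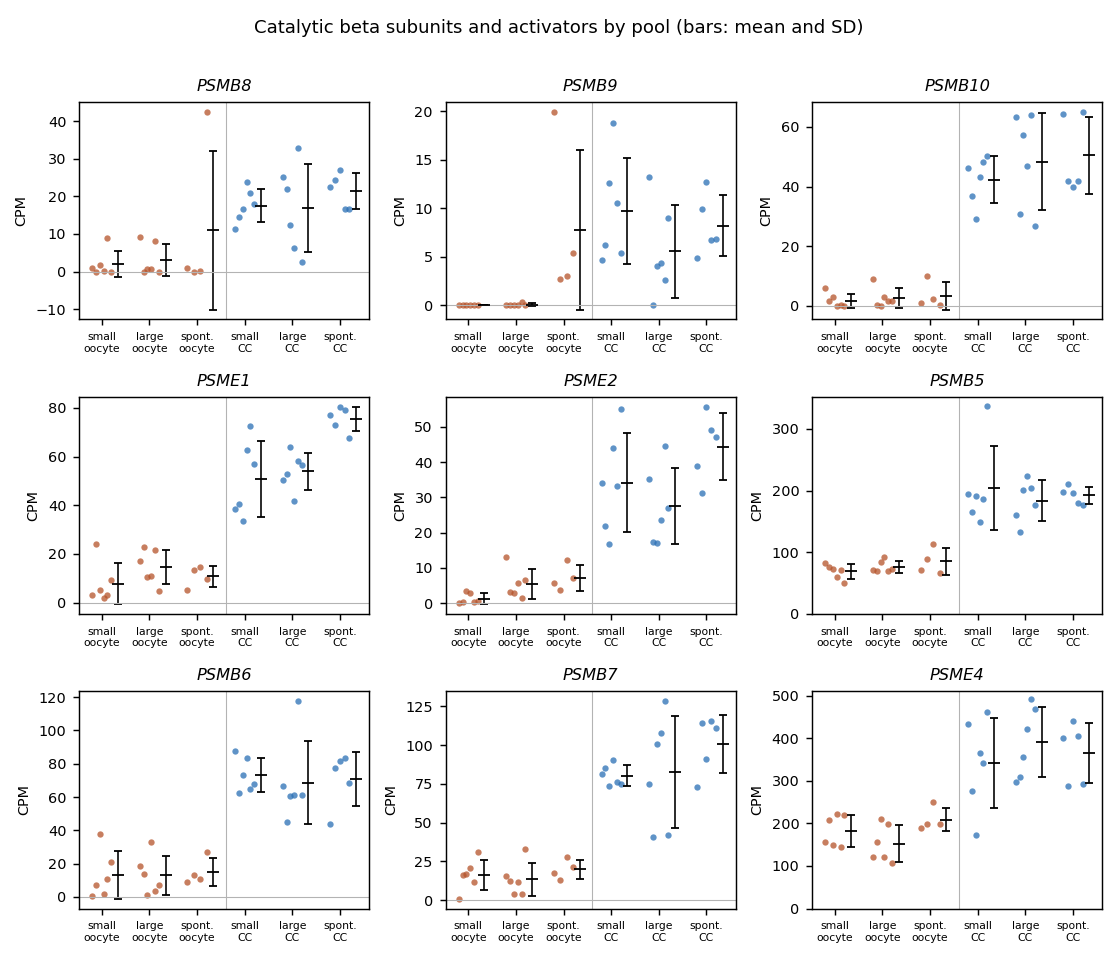
Level in CPM, on linear axes with a scale of its own in each panel, of the immunoproteasome subunits PSMB8, PSMB9 and PSMB10, the standard catalytic subunits PSMB5, PSMB6 and PSMB7, and the activators PSME1, PSME2 and PSME4 in every pool (points; bars are mean and SD), by cell type and follicle class. PSMB9 rests at 0 in all 6 small oocyte pools and lies between 2.70 and 19.9 CPM in the 4 spontaneous oocyte pools, and a bar that reaches below 0 reflects the SD of few pools.

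All 6 ATPases of the 19S base, which unfold substrates, were called higher in CC, against 39.3% of all genes tested. Log2 differences ran from 0.94 (PSMC1) to 1.84 (PSMC2). Their summed level was 156, 195 and 351 CPM in oocytes and 477, 585 and 689 CPM in CC. The differences covered a narrower range than in the other role groups of more than 1 gene. PSMC2 had 18.7, 42.8 and 84.5 CPM in oocytes and 139, 173 and 213 CPM in CC (SE 0.138), without overlap.

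Of the 11 other cap subunits, 6 were called higher in CC, 4 lower and 1 was not called. Among all genes tested 39.3% were called higher and 43.9% lower. The higher genes were PSMD2, PSMD6, PSMD7, PSMD8, PSMD13 and PSMD14, and the lower ones PSMD1, PSMD3, PSMD11 and PSMD12. PSMD14, the deubiquitinase of the lid, had 36.4, 61.5 and 97.5 CPM in oocytes and 72.6, 108 and 131 CPM in CC (log2 difference 0.73, SE 0.126). PSMD8, a lid subunit, had the largest log2 difference of the cap, 2.02 (SE 0.206), with 3.84 to 35.6 CPM in oocytes and 48.1 to 77.0 CPM in CC. In contrast PSMD11, a lid scaffold subunit, had 103 to 212 CPM in oocytes and 40.8 to 87.8 CPM in CC (-1.25, SE 0.122). PSMD3, also a lid subunit, had 66.5 to 131 CPM in oocytes and 28.5 to 67.4 CPM in CC (-1.08, SE 0.130). Its groups touch on the deposited scale and do not overlap after rescaling. PSMD4, a ubiquitin receptor, had 40.5, 73.1 and 109 CPM in oocytes and 41.8, 52.9 and 114 CPM in CC. Its log2 difference of -0.34 (95% confidence interval -0.63 to -0.05, adjusted p = 0.0280 by limma) did not reach the threshold either, and turned positive (up to 0.08) with median-of-ratios scaling and with DESeq2. The genes of the cap moved in both directions, as all genes tested did. Their summed level had medians of 1134 CPM in oocytes and 1129 CPM in CC.

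Of the 7 chaperones that assemble the particle, 3 were called higher in oocytes, 3 higher in CC and 1 was not called. Among all genes tested 43.9% were called higher in oocytes and 39.3% higher in CC. PSMD5, a chaperone of the 19S base, had 128, 203 and 289 CPM in oocytes and 29.8, 63.5 and 87.8 CPM in CC (log2 difference -1.77, SE 0.126). PSMD9, of the same group, had 27.0, 71.3 and 131 CPM in oocytes and 7.08, 21.1 and 33.2 CPM in CC (-1.81, SE 0.219). PSMD10 went the other way (1.69, SE 0.225). PSMG1, which with PSMG2 builds the alpha ring, had 153, 256 and 405 CPM in oocytes and 59.1, 91.1 and 156 CPM in CC (-1.48, SE 0.131). PSMD5 and PSMG1 did not overlap between the cell types after rescaling. PSMG2, the partner of PSMG1, was higher in CC (0.67, SE 0.137), with 12.4, 28.1 and 40.7 CPM in oocytes and 28.2, 44.3 and 63.9 CPM in CC. PSMG3 and PSMG4, the other pair of core chaperones, had log2 differences of 1.62 (SE 0.365) and 0.18 (95% confidence interval -0.34 to 0.71). PSMG3 had 0, 1.0 and 18.9 CPM in oocytes, 5 of 16 pools without a read, and 3.94, 7.38 and 11.1 CPM in CC, and was not called by edgeR or DESeq2. PSMG4 had 5.67, 22.2 and 69.0 CPM in oocytes and 13.0, 26.6 and 49.7 CPM in CC. Partners of a chaperone pair thus had differences of unlike size. POMP, the maturation factor of the beta ring, was not called (0.10, 95% confidence interval -0.16 to 0.35), with medians of 151 CPM in oocytes and 161 CPM in CC.

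The 4 activator genes were called higher in CC, against 39.3% of all genes tested. PSME1, a subunit of the interferon-responsive activator ring, had 1.88, 10.1 and 24.0 CPM in oocytes and 33.5, 58.2 and 80.4 CPM in CC (log2 difference 2.52, SE 0.227). Its partner PSME2 had 0.0811, 3.39 and 13.1 CPM in oocytes and 16.7, 34.05 and 55.7 CPM in CC (2.95, SE 0.250). Neither gene overlapped between the cell types. PSME3, which forms a nuclear activator ring, differed less, with 9.65, 21.5 and 45.3 CPM in oocytes and 21.4, 35.2 and 59.2 CPM in CC (0.56, SE 0.179). PSME4, a nuclear activator linked to histone degradation, had 107, 194 and 249 CPM in oocytes and 173, 367 and 491 CPM in CC (0.96, SE 0.124). The within-pool ratio of PSME4 to PSME1 was 20.2 in oocytes (6.81 to 118) and 5.86 in CC (3.93 to 11.2). PSMF1, which encodes the regulator PI31, was not called (-0.21, 95% confidence interval -0.62 to 0.21), with medians of 23.9 CPM in oocytes and 23.6 CPM in CC.

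Genes that work beside the proteasome were counted for comparison. Of 31 partner genes (ubiquitin genes, shuttle factors, regulators and unfolding enzymes) 30 were found and tested. From oocytes to CC, 10 were called higher and 13 lower, with a median log2 difference of -0.09. Among all genes tested 39.3% were called higher and 43.9% lower, with a median of -0.19. PAAF1, a chaperone of the 19S ATPases, had 0, 2.06 and 27.9 CPM in oocytes and 9.94, 20.4 and 30.9 CPM in CC (2.52, SE 0.343). The following 4 were chosen after their values were seen. NFE2L1, the transcription factor that drives proteasome genes when degradation is impaired, was higher in CC (2.08, SE 0.161). NGLY1, the deglycosylating enzyme that processes it, was lower in CC (-4.26, SE 0.137), with 528 to 883 CPM in oocytes and 18.3 to 58.4 CPM in CC. AKIRIN2, needed for import of proteasomes into the nucleus, was also lower (-2.76, SE 0.101), as was PITHD1 (-4.11, SE 0.132). Of 12 genes of antigen processing and the interferon response, 10 were tested, 8 called higher and 1 lower in CC, with a median of 2.29. The 1 lower gene was NLRC5, an activator of antigen-presentation genes (-2.14, SE 0.419), at 0.338 to 33.1 CPM in oocytes.

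The follicle classes were then compared within each cell type, which asks whether follicle size or an induced surge altered these transcripts. Few members differed. At limma's p of 0.01 or less, 0 of 45 members were called between small and large oocytes and 0 of 45 between small and spontaneous oocytes, against 0.655% and 0.774% of the 10076 genes tested. With p under 0.05, 3 members stood in each of these 2 comparisons (4.11% and 4.51% of all genes). Small replicate 3 was left out in a second fit of both, and a call had to hold in each. Between large and spontaneous oocytes 1 of 45 was called, against 0.943% of all genes. In CC the counts were 0 of 46 between small and large, 2 of 46 between small and spontaneous and 1 of 46 between large and spontaneous. The respective shares of the 9712 genes tested were 0.813%, 2.38% and 1.66%. A share of 1 or 2 members is near these backgrounds. After Benjamini-Hochberg adjustment over all genes, no member passed 0.05 in any class comparison by limma. The median log2 difference of the members in the order above was 0.05, 0.22, 0.16, 0.06, 0.17 and 0.12. Over all genes it was 0.05, 0.05, 0.01, 0.05, 0.16 and 0.11. In CC from small to spontaneous 39 of 46 members had higher estimates in spontaneous pools, but the median of all genes lay at nearly the same height. With median-of-ratios scaling the medians from small and from large to spontaneous CC were 0.02 and 0.02 over the members and 0.01 and 0.01 over all genes.

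**Figure D4:**
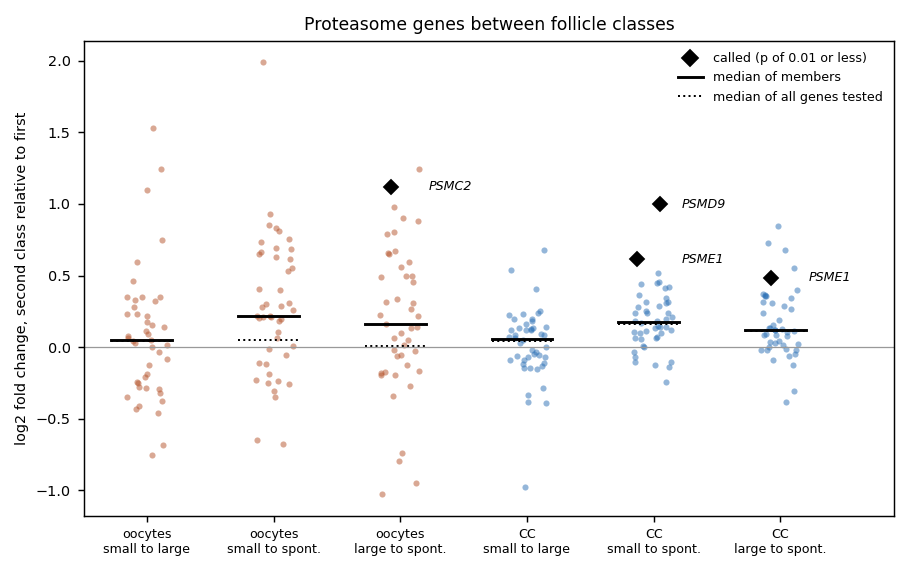
Log2 difference of each member (points) in the 6 comparisons of follicle classes, second class relative to first, with the median over the members as a solid bar and that over all genes tested as a dotted bar. Diamonds mark the members called; member medians run from 0.05 to 0.22 and those of all genes from 0.01 to 0.16.

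PSMC2, an ATPase of the 19S base, was the member called in oocytes. It had 18.7, 34.8 and 43.0 CPM (lowest, median and highest) in the 6 large pools and 82.3, 66.2, 81.0 and 58.7 CPM in the 4 spontaneous pools. These groups did not overlap. The mean rose from 33.6 ± 9.59 to 72.0 ± 11.5 CPM (SD, n = 6 and 4), a log2 difference of 1.12 (SE 0.327, limma's p = 0.0020, exact permutation p = 0.0048). The latter is the smallest that 6 against 4 pools allow, and the Benjamini-Hochberg adjusted p of limma was 0.925. Small oocytes spanned 24.9, 39.0 and 84.5 CPM and overlapped both. The call remained when any 1 pool was left out, but not with the replicate number as a block (1.03). In CC the gene lay between 139 and 213 CPM in all classes, and the change from large to spontaneous differed between the cell types by -1.24 (SE 0.346, adjusted p = 0.812 by limma). The other 5 ATPases were not called between large and spontaneous oocytes.

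In CC, PSMD9 and PSME1 were called, and both were higher in spontaneous pools. Both calls were lost with median-of-ratios scaling, with CPM without mitochondrially encoded genes and with edgeR, and that of PSME1 also with DESeq2. Under these settings the log2 difference was 0.83 to 0.85 for PSMD9, and for PSME1 0.42 to 0.46 from small and 0.38 to 0.43 from large to spontaneous. PSMD9, the 19S chaperone, had 7.08, 11.0 and 23.7 CPM in small and 27.6, 18.1, 21.1, 33.2 and 30.9 CPM in spontaneous CC. The groups overlapped, and the log2 difference was 0.996 (SE 0.313, p = 0.0053 and adjusted p = 0.390 by limma, exact permutation p = 0.0195). Large CC had 7.23, 23.2 and 32.4 CPM and overlapped both. The call was lost when small pool 2, 5 or 6, or spontaneous pool 1, 4 or 5, was left out, with log2 differences from 0.85 to 0.98. PSME1, of the interferon-responsive activator, had 33.5, 48.8 and 72.5 CPM in small, 41.8, 54.7 and 63.9 CPM in large, and 76.9, 73.1, 80.4, 78.9 and 67.7 CPM in spontaneous CC. Spontaneous pools lay above all large pools and overlapped the small ones. From small to spontaneous the log2 difference was 0.61 (SE 0.210, p = 0.0094 and adjusted p = 0.418 by limma, exact permutation p = 0.0108). From large to spontaneous it was 0.49 (SE 0.161, p = 0.0076 and adjusted p = 0.567 by limma, exact permutation p = 0.0043).

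Both PSME1 calls depended on single pools. The first was lost without small pool 1, 2 or 3 or without any 1 of the 5 spontaneous pools, with log2 differences from 0.51 to 0.65. The second was lost without large pool 1 or 4 or spontaneous pool 1, 2, 3 or 4, with log2 differences from 0.42 to 0.50. PSME2, the partner, had 17.1, 25.2 and 44.6 CPM in large and 31.2, 47.2 and 55.7 CPM (lowest, median and highest) in spontaneous CC, and missed the threshold (0.73, limma's p = 0.0115, exact permutation p = 0.0303). Cumulus markers moved in the same direction: 11 of 12 tested had higher estimates in spontaneous CC in both comparisons. Of all genes tested, 71.9% had higher estimates from small and 65.6% from large to spontaneous CC. INHA and CYP19A1 were called from large to spontaneous CC, where 1.66% of all genes were, and 0 cumulus markers from small. The sum of the 14 listed was 4137 to 7931 CPM in small, 4443 to 10802 CPM in large and 6094 to 11862 CPM in spontaneous pools. Of 7 white blood cell markers tested, 6 had higher estimates and 0 were called; the sum of 14 was 35.9 to 157, 36.5 to 271 and 57.0 to 251 CPM. The part of either cell composition in the PSME1 and PSMD9 levels was not tested.

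**Figure D5:**
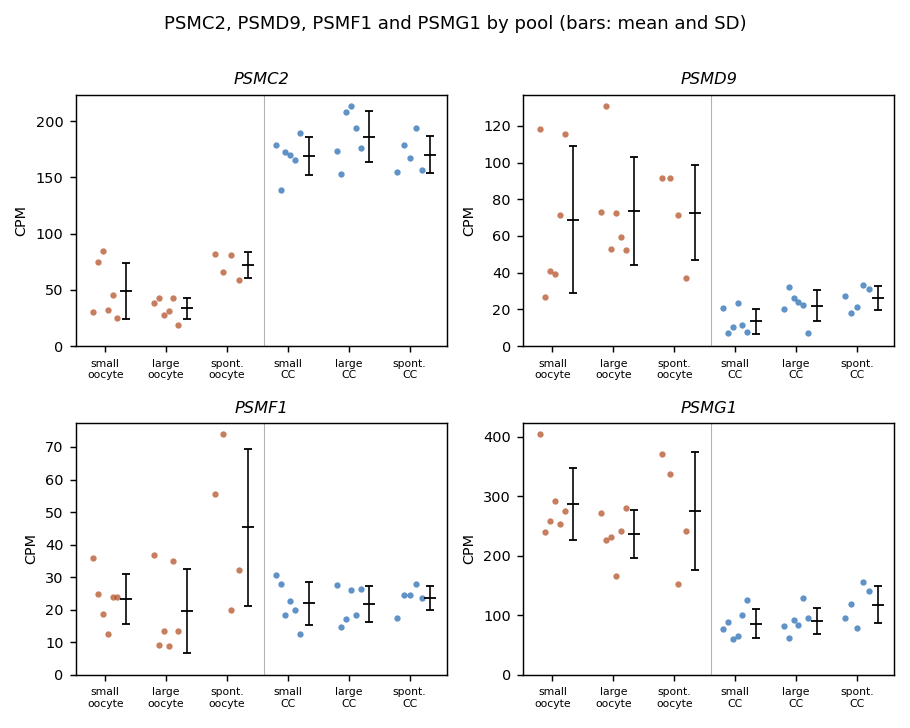
Level in CPM of PSMC2, PSMD9, PSMF1 and PSMG1 in every pool (points; bars are mean and SD), by cell type and follicle class. PSMC2 in spontaneous oocytes (58.7 to 82.3 CPM) lies above the large oocyte pools (18.7 to 43.0 CPM), and most CC pools of PSMD9 and PSMG1 lie lower than the oocyte pools.

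PSMB9 separated the oocyte classes below the filter on low values, which it failed because it reached 5 CPM in only 2 oocyte pools. The 6 small oocyte pools held 0 PSMB9 reads among 70204425 reads on genes, which allows up to 0.0427 CPM over the group. Large pool 5 had 3 reads (0.277 CPM), and the other 5 large pools had none. The 4 spontaneous pools had 300, 40, 39 and 97 reads, or 19.9, 2.70, 2.96 and 5.41 CPM. Every spontaneous pool thus lay above every pool of the other classes. Their mean of 7.75 ± 8.21 CPM (SD, n = 4) was 181 times the limit for small pools. That limit covers counting error only, not the spread between pools, so the multiple is no lower bound on the difference. Without spontaneous pool 1, the highest, the mean was 3.69 ± 1.495 CPM (SD, n = 3), or 86.3 times the same limit. The exact permutation test gave p = 0.0048 against small and against large pools, the smallest possible. Without the filter, limma gave log2 differences of 2.73 (adjusted p = 0.500) and 2.68 (adjusted p = 0.588). In CC, PSMB9 was read in all classes, with 4.60, 8.32 and 18.8 CPM in small, 0, 4.18 and 13.2 CPM in large, and 4.81, 9.95, 12.7, 6.71 and 6.83 CPM in spontaneous pools. Of the spontaneous oocyte pools, 3 lay within the range of the CC pools and 1 above it.

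The change of PSMB9 from small to spontaneous differed between the cell types by -2.90 (SE 0.699, adjusted p = 0.347 by limma). The adjusted p was 0.0102 by edgeR and 4.13e-08 by DESeq2. PSMB9 entered these fits only through its levels in CC. Small oocytes had no read, so a count model has no finite fold for them, and spontaneous pool 1 held 300 reads. These 2 adjusted p-values are therefore not taken as support. TAP1, a peptide transporter gene beside PSMB9 in the genome, had 0.152 to 1.62 CPM in the spontaneous oocyte pools. It had 0 to 13.1 CPM in small and 0 to 6.61 CPM in large oocyte pools. PSMB8 and PSMB10 did not follow the pattern of PSMB9: PSMB10 gave exact permutation p = 0.582, 0.524 and 0.719 in the 3 oocyte comparisons, and the highest PSMB8 pool was spontaneous pool 4 while the highest PSMB9 pool was spontaneous pool 1. The 14 white blood cell markers summed to 182 to 302 CPM in small, 147 to 208 CPM in large and 187 to 265 CPM in spontaneous oocyte pools. Each class had reads of 10 markers, but not of the same 10. CORO1A, ITGB2, TYROBP and CD48 had none in spontaneous oocytes. PTPRC, CD53, CORO1A and ITGB2 had none in small oocytes, and CORO1A, TYROBP, CD48 and CD2 none in large oocytes. LAPTM5 reached 5.22 CPM in small, 4.23 CPM in large and 9.85 CPM in spontaneous oocytes. In the same order FCER1G reached 11.1, 32.3 and 13.2 CPM, and LCP1 29.98, 21.98 and 33.9 CPM. Of 5 tested, 4 had higher estimates in spontaneous than in large oocytes (median 0.31) and 3 than in small oocytes (median 0.39), and 0 were called. The summed cumulus markers were 669 to 1030 CPM in small, 496 to 1322 CPM in large and 788 to 1001 CPM in spontaneous oocyte pools, which overlap. In oocytes STAR made 258 to 464 CPM and HAS2 132 to 248 CPM of this sum. Both were higher in oocytes than in CC, so the overlap cannot show whether cumulus RNA was alike between classes. The part of other cell types in the PSMB9 reads was not tested.

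PSME2 had the same order of the oocyte classes at a low level. It had 0.0811, 0.461 and 3.52 CPM in small, 1.48, 4.42 and 13.1 CPM in large and 5.64, 3.64, 12.2 and 7.14 CPM in spontaneous oocytes. Small and spontaneous pools did not overlap, but limma did not call the difference (1.99, SE 0.767, p = 0.0150, exact permutation p = 0.0048). Its change from small to large differed between the cell types by -1.83 (SE 0.581, adjusted p = 0.775 by limma). PSMF1 had 8.90, 13.4 and 36.8 CPM in large and 55.6, 73.9, 19.8 and 32.1 CPM in spontaneous oocytes, with overlap (1.24, SE 0.494, p = 0.0183 by limma, exact permutation p = 0.0524). Neither gene was called in the planned oocyte comparisons. PSME2 was called from small to spontaneous oocytes without the filter on low values and with all 3 classes in one fit, and PSMF1 from large to spontaneous oocytes without large pool 1 or 5 or spontaneous pool 3. PSMG1, the core chaperone that differed between cell types, had medians of 266, 237 and 289 CPM in small, large and spontaneous oocytes and 82.4, 87.6 and 120 CPM in CC, and was not called between classes.

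The tests of whether a class difference itself differed between oocytes and CC called 1 of 47 members from small to large (PSME2), 3 from small to spontaneous (PSMB9, PSMA3 and PSMD6) and 1 from large to spontaneous (PSMC2). The shares of all 11450 genes called were 1.14%, 1.34% and 0.943%. PSMB9 was among the genes tested only because of its levels in CC. PSMA3, an alpha ring subunit, differed by 1.06 (SE 0.317, adjusted p = 0.594 by limma) and the cap subunit PSMD6 by 0.96 (SE 0.353, adjusted p = 0.728). None of the 5 passed adjustment over all genes by limma.

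Among the partner genes, 1 was called in a class comparison. UBE3C, a ubiquitin ligase that binds the proteasome and extends chains on it, had 21.7, 55.8 and 83.3 CPM in large oocytes and 11.7 to 18.6 CPM in the 4 spontaneous pools, without overlap. Its log2 difference was -1.53 (SE 0.398, p = 0.000698, adjusted p = 0.847 by limma; exact permutation p = 0.0143). In the antigen-processing list, CALR, which encodes a chaperone of the endoplasmic reticulum, was called 3 times. It was higher in large than in small oocytes (0.80, SE 0.284, p = 0.0085 by limma, exact permutation p = 0.0541). In CC it was higher in spontaneous than in small pools (0.67, SE 0.200, p = 0.0035 by limma, exact permutation p = 0.0022). It was also higher in spontaneous than in large pools (0.59, SE 0.187, p = 0.0054 by limma, exact permutation p = 0.0173). Its adjusted p-values by limma were 0.997, 0.363 and 0.567. No other gene of these 2 lists was called between classes, with 30 and 9 genes tested in oocytes and 29 and 9 in CC.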

How the data were processed

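RNA was sequenced from 33 pools (16 of oocytes, 17 of CC). Per the labels and the methods of the study, total RNA was amplified, libraries were sequenced single-end, reads were aligned to UMD3.1 with Hisat2 and counted with featureCounts, and edgeR and DESeq2 were used; versions are not given in the sources used here. The deposited values are CPM that the authors computed for each cell type separately. Every value was a whole number of reads (tolerance 0.01 reads), so reads were recovered for the count tests. Pools of a group differed by more than sampling noise.

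Members were matched by symbol and Ensembl identifier. The members and lists were chosen with earlier results of these data known. Class comparisons used limma 3.58.1 (R 4.3.3) on log2(CPM + 1), with trend, two-sided, on genes with 5 CPM or more in 4 or more oocyte pools, or 5 or more CC pools; 45 and 46 members passed. PSMB9 and PSMB10 in oocytes and PSMA8 and PSMB11 in CC did not. A call is p of 0.01 or less, the nominal threshold of the study. Cell types and interactions were fitted on all 33 pools in 6 groups; 47 members passed. Fold changes are on the log2(value + 1) scale, which understates changes of low genes. Exact permutation tests (two-sided) compared mean CPM. The labels do not say whether pools of a group shared animals. Per the methods of the study the largest follicle of each cow was aspirated, and 4 complexes made a pool. The p-values thus measure the spread between pools of different cows, which may in part be technical. The text names members called between classes, members of set roles, the 4 largest differences between cell types in each direction, members listed or read in 1 cell type only, PAAF1, POMP and list genes called between classes; others were chosen after their values were seen.

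Correlations of deviations between same-numbered pools ran from -0.190 to 0.224. Between same-numbered oocyte and CC pools of the small and large classes they ran from -0.040 to 0.077. Such values cannot show whether same-numbered pools came from the same complexes, and the labels do not say. Alternatives were edgeR 4.0.16, DESeq2 1.42.0, other scalings, filters and pseudocounts, all classes in 1 fit, the replicate block and leaving out each pool. Tables and plots were made with Python 3.11.15, pandas 2.3.3 and matplotlib 3.10.9. The limma fits of the class comparisons and of oocytes against CC were first run on simulated data. The interaction tests and the alternatives were not. Sequences were not used here.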

Additional observations from a re-analysis of the deposited data

Results flagged for a closer look

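Of 150 groups of 4 to 6 pools checked, 19 held a pool that stood apart from the others of its group by Dixon's criterion. The criterion flags about 5% of groups only where values are normally distributed. It was applied to CPM, which is skewed and holds zeros for low genes, so 19 cannot be read as an excess. For PSMA8 in large CC, PSMB9 in large oocytes and PSMB11 in spontaneous CC, all other pools of the group had no read. In oocytes, the pool highest and apart was large pool 6 for PSMA1 (24.5 CPM), small pool 3 for PSMA2 (27.7 CPM), small pool 5 for PSMB8 (8.96 CPM), spontaneous pool 4 for PSMB8 (42.4 CPM), large pool 5 for PSMB9 (0.277 CPM), spontaneous pool 1 for PSMB9 (19.9 CPM) and large pool 1 for PSMB10 (9.06 CPM). So was large pool 2 for PSMD9 (131 CPM), small pool 2 for PSME1 (24.0 CPM), spontaneous pool 3 for PSME4 (249 CPM) and small pool 1 for PSMG1 (405 CPM), while PSMA7 stood apart as the lowest in spontaneous pool 2 (256 CPM, others at least 312 CPM). In CC the pools were large pool 4 for PSMA8 (0.195 CPM), small pool 6 for PSMB5 (338 CPM), large pool 5 for PSMB6 (118 CPM), spontaneous pool 3 for PSMB11 (0.363 CPM) and for PSMD4 (73.3 CPM), and, as the lowest of their groups, large pool 6 for PSMD5 (37.0 CPM) and large pool 2 for PSME3 (21.4 CPM).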

How the results depend on the processing

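Between follicle classes, the members called changed by 1 or 2 under some settings. From small to spontaneous oocytes the count of 0 became 1 with DESeq2, 1 with all 3 classes in one fit (PSME2), 1 with a mean of at least 1 CPM as the filter (PSMB9) and 2 without a filter (both). From large to spontaneous oocytes the count of 1 became 2 with either of these filters and 0 with the replicate block. From small to spontaneous CC the count of 2 became 1 with DESeq2 and 0 with edgeR, with median-of-ratios scaling and with CPM without mitochondrially encoded genes. From large to spontaneous CC the count of 1 became 3 without a filter and 0 with DESeq2, edgeR, either of those scalings, all 3 classes in one fit and the replicate block. Leaving out 1 pool at a time gave 0 to 1 (small to large oocytes), 0 to 1 (small to spontaneous oocytes), 1 to 2 (large to spontaneous oocytes), 0 to 1 (small to large CC), 0 to 2 (small to spontaneous CC) and 0 to 2 (large to spontaneous CC). From small to spontaneous CC the count was 0 without small pool 2, spontaneous pool 4 or spontaneous pool 5, and from large to spontaneous CC it was 0 without spontaneous pool 3 or 4. Other members were called in oocytes without large pool 3 (PSMD11, small to large), without spontaneous pool 2 (PSMA3, small to spontaneous), without large pool 1 or 5 or spontaneous pool 3 (PSMF1, large to spontaneous) and without spontaneous pool 1 (PSMD6, large to spontaneous). The difference between cell types in the change from small to spontaneous was called, by adjusted p, for PSMB9 alone with edgeR (1) and DESeq2 (1), and from large to spontaneous for PSMB9 with DESeq2 (1); limma's adjusted p called 0 of these members. PSMB9 passed the filter of these fits only by its levels in CC, and small oocytes had no read of it. The cause was not tested. From oocytes to CC the count of 41 ran from 38 to 42, with 40 to 42 when 1 pool was left out. It was 38 with the replicate block, which used the small and large pools only. The members' median there moved from 0.96 to 1.29 without mitochondrially encoded genes, 1.39 with median-of-ratios scaling and 1.39 with DESeq2, as that of all genes rose to between 0.13 and 0.20. All 41 kept their direction in the 9 settings and 35 stayed called in each; the others were PSMA3, PSMA4, PSMB2, PSMD1, PSMG2 and PSMG3. The labels do not say that replicate numbers pair the pools. The block also lost PSME1 from small to spontaneous CC (0.66). Between cell types, the block fit, which left out the spontaneous pools, lost PSMA3, PSMA4 and PSMG2. With 4 to 6 pools a group and CC depths down to 1911600 reads, small differences and transcripts under about 1.57 CPM could not be resolved. Leaving out both pools of fewest reads was an alternative chosen after seeing the data.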

Other observations

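PSMA8, the germ-line alpha subunit, had a few reads in CC, too few for the filter on low values. In spontaneous CC all 5 pools had a read (0.623 ± 0.310 CPM, SD, n = 5), whereas 1 of 6 large CC pools did (0.0325 ± 0.0797 CPM, n = 6). The exact permutation test gave p = 0.0022, the smallest that 6 against 5 pools allow, at levels below 3 reads in most pools. Small CC lay between 0 and 4.00 CPM and overlapped both classes. Of the 7 oocyte markers listed in CC, GDF9, NLRP5, NOBOX, ZP2 and ZP3 did not exceed 3.92 CPM there, OOEP reached 13.7 CPM and KIT lay between 39.9 and 350 CPM. Their sum was 89.1 to 191 CPM in spontaneous, 48.4 to 176 CPM in large and 86.3 to 356 CPM in small CC, and the part of oocyte RNA in these PSMA8 reads was not tested.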
